A study of Mus musculus with 6 samples.

Results

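The endosomal Toll-like receptor genes and the genes of their dedicated chaperones were examined in whole spleens of female mice, NOD.B10 and BL/10. The set was chosen by gene name, with earlier results of these data known. It held 9 of the 47729 genes in the count table. These were the 7 receptor genes Tlr3, Tlr7, Tlr8, Tlr9, Tlr11, Tlr12 and Tlr13 and the 2 chaperone genes Unc93b1 and Cnpy3. All 9 passed the filter on low counts. NOD.B10 (NOD.B10Sn-H2b/J) is a congenic strain in which females develop a disease resembling primary Sjögren's syndrome, and it carries the b haplotype of the H2 complex on a NOD background. BL/10 (C57BL10/SnJ in the labels) was the healthy control strain. No animal was treated. Each strain was represented by 3 libraries of whole spleen, described as biological replicates, so the comparison is between 2 inbred strains that differ at many loci. The labels give an age of 26 weeks for the NOD.B10 libraries and BL/10 replicate 1 and of 36 weeks for BL/10 replicates 2 and 3, although the controls were described as age-matched.

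The strain of each library was read from the sample description, which names the strain as the columns of the count table do. Titles and strain fields name the opposite strain for all 6 samples, and every direction given here would be reversed under them. The question addressed was which endosomal receptors differ in transcript level between spleens of the diseased strain and those of the control strain.

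Endosomal Toll-like receptors detect nucleic acids and microbial proteins that have been taken up into the endolysosomal compartment. Tlr3 recognises double-stranded RNA and signals through the adaptor TRIF (gene Ticam1), while the other endosomal receptors use Myd88. Tlr7 and, in humans, TLR8 recognise single-stranded RNA and its breakdown products, Tlr9 recognises unmethylated CpG DNA, and Tlr13 recognises bacterial ribosomal RNA. Tlr11 and Tlr12 bind the profilin of apicomplexan parasites, so those receptors share the endosomal location and the chaperones but do not sense nucleic acid. Unc93b1 encodes the membrane protein that carries these receptors from the endoplasmic reticulum to endosomes, and Cnpy3 encodes a co-chaperone that acts with Hsp90b1 (gp96) in the folding of most Toll-like receptors. In lupus-prone mice, an excess of Tlr7 promotes disease and its loss protects from it.

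The depth was similar between strains, with 16257041 to 17160323 counted reads in NOD.B10 libraries and 15662712 to 18298451 in BL/10 libraries. At this depth, a count of 3 corresponded to between 0.163 and 0.201 CPM (counts scaled to the TMM-adjusted library total), and every member was above that level in every library. The 11 markers of spleen cells in a fixed list were all detected. The BL/10 libraries stood apart in a list of 10 pancreas acinar genes, whose summed level was 11742 CPM in replicate 1, 1781 in replicate 2 and 105 in replicate 3, against 22.2 to 30.7 CPM in NOD.B10. Of all 15330 genes tested, edgeR's quasi-likelihood test with Benjamini-Hochberg adjustment called 2656 at an adjusted p under 0.05, or 17.3%, with 1396 (9.11%) higher and 1260 (8.22%) lower in NOD.B10. That count was 1269 without NOD.B10 replicate 1, 1395 without NOD.B10 replicate 3, 4107 without BL/10 replicate 1, 1580 without BL/10 replicate 2 and 1744 without BL/10 replicate 3. Any fit without BL/10 replicate 1 leaves no control with the age label of the NOD.B10 libraries. Strain and labelled age cannot be separated in such a fit.

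Of the 9 members, 4 were called, all of them higher in NOD.B10, against a background of 17.3% of genes called in either direction and 9.11% called higher. These were Tlr12, Tlr13, Tlr8 and Cnpy3. Tlr3, Tlr7, Tlr9, Tlr11 and Unc93b1 were not called. The number called was 2 without NOD.B10 replicate 1, NOD.B10 replicate 3 or BL/10 replicate 3 and 3 without BL/10 replicate 1 or 2, and Tlr12 and Tlr13 were called in each of these fits. The start regions of the 4 called genes are shown first, because these are the sequences that lie in front of the transcripts that differed. Each is the RefSeq window on GRCm38.p6 from 250 bases before to 50 bases after the annotated start, written 5′ to 3′ on the strand of the gene, and is reference sequence and not that of either strain. Capitals mark every match to 1 of 6 motifs searched on both strands: GAGGAA (core of the Ets family site bound by PU.1), GAAA and GAAA with any 2 bases between them (interferon response), TGACGTCA (CRE), TGANTCA (AP-1), GGGA and CC with any 4 bases between them (NF-kB) and TTGCNNNA (C/EBP). The windows are chr4:128618570-128618869 (minus strand) for Tlr12, chrX:106143025-106143324 (plus strand) for Tlr13, chrX:167264280-167264579 (minus strand) for Tlr8 and chr17:46752165-46752464 (minus strand) for Cnpy3.
Tlr12: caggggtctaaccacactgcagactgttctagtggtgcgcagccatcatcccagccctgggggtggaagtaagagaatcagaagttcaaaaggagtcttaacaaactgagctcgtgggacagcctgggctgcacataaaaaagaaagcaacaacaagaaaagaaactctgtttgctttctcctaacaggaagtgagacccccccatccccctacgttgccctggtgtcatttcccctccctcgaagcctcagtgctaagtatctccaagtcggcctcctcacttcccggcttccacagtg
Tlr13: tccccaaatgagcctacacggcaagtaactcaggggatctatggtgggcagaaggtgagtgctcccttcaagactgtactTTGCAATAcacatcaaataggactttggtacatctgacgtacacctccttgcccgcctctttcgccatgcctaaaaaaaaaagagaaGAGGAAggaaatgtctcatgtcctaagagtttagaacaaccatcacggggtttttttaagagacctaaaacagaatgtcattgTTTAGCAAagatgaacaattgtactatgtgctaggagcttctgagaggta
Tlr8: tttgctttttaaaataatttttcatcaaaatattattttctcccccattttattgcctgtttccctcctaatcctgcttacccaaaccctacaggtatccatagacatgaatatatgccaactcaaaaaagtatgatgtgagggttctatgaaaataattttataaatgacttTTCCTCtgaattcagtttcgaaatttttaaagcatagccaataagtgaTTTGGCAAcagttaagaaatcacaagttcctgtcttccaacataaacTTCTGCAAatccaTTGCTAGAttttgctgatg
Cnpy3: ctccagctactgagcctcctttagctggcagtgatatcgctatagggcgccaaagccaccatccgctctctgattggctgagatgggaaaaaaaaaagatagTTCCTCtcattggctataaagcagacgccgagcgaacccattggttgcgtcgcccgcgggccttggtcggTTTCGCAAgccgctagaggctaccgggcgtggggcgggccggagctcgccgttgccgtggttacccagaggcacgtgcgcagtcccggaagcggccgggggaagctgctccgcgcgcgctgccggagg

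The 4 windows had no motif in common. The Tlr12 window held no match to any of the motifs. Tlr13, Tlr8 and Cnpy3 each held 1 GAGGAA, which was found in 28.3% of the 32851 windows of this length, and between 1 and 3 matches to TTGCNNNA, which was found in 33.4%. In Tlr13 the GAGGAA stood on the plus strand of the window at position -83 from the start, in Tlr8 on the minus strand at -77, and in Cnpy3 on the minus strand at -148. The GC content also differed, at 32.3% for Tlr8, 43.3% for Tlr13, 52.3% for Tlr12 and 63.0% for Cnpy3, beside a median of 52.7% over all windows. Among members that were not called, the Tlr3 window held 3 matches to the NF-kB motif (20.7% of windows) and 1 to TTGCNNNA, the Tlr9 window held 2 to GAGGAA and 1 to TGANTCA (7.81%), and the Tlr11 window held 2 to GAGGAA and 1 to the interferon response motif (3.44%). TGACGTCA, found in 1.79% of all windows, was in none of the 7 windows searched. A match is only a run of letters and was not tested as a binding site. No window was used for Tlr7 or Unc93b1.

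The levels of the members were compared per length, as CPM on TMM-scaled totals divided by the exon length in kilobases (RPKM). Unc93b1 was the most abundant member in every library, followed by Cnpy3, and Tlr12 was the least abundant in every library. Between them, the means of the other receptors ranged from 5.04 (Tlr11) to 21.4 RPKM (Tlr13) in NOD.B10 and from 4.80 (Tlr11) to 16.6 RPKM (Tlr9) in BL/10. Tlr7 and Tlr9 could not be ordered, since their libraries overlapped in both strains, and neither could Tlr8 and Tlr3. Tlr13 took a different place in each strain. It was the most abundant receptor in all 3 NOD.B10 libraries, with no overlap with Tlr7 libraries. In NOD.B10 replicate 3 it was almost level with Tlr9, at 20.08 against 20.05 RPKM. Within every BL/10 library Tlr13 stood below Tlr7.

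**Figure D1:**
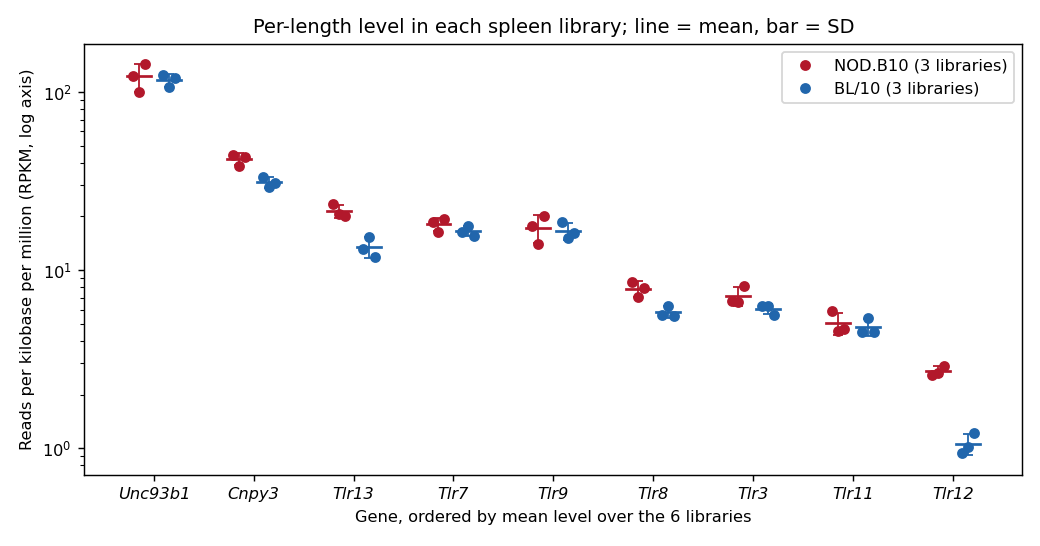
Level of each of the 9 members in each library (RPKM, log axis), with 1 point per library, the NOD.B10 and BL/10 strains in separate colours, a line at each mean and a bar of 1 SD (n = 3 each). The NOD.B10 points lie above all BL/10 points for Tlr12, Tlr13, Tlr8, Cnpy3 and Tlr3, and the points of the strains overlap for Tlr7, Tlr9, Tlr11 and Unc93b1.

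Among the receptors of RNA, Tlr13 was increased in NOD.B10 spleens as compared to BL/10. Tlr13 (ENSMUSG00000033777) lies at X:106143204-106160493 on the plus strand of GRCm38 and its exons form 4 blocks. Its level was 23.4, 20.6 and 20.1 RPKM in the NOD.B10 libraries and 13.2, 15.4 and 11.8 RPKM in the BL/10 libraries. The strains did not overlap, and the lowest NOD.B10 library stood well above the highest BL/10 library. The mean was 21.4 ± 1.80 RPKM in NOD.B10 and 13.5 ± 1.82 RPKM in BL/10 (SD, n = 3 each), a 1.59-fold difference (log2 fold change 0.67, SE 0.12, adjusted p = 0.0089 in edgeR's quasi-likelihood test). Tlr13 was called under all 16 alternative settings, with log2 fold changes between 0.57 and 0.84.

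Tlr8, the neighbour of Tlr7 on the X chromosome, was also increased, by a smaller amount. Tlr8 (ENSMUSG00000040522) lies at X:167242696-167264329 on the minus strand, with 4 exon blocks. It was measured at 8.61, 7.02 and 7.94 RPKM in NOD.B10 and at 5.59, 6.32 and 5.53 RPKM in BL/10. All NOD.B10 libraries were above all BL/10 libraries, with a small gap between NOD.B10 replicate 2 and BL/10 replicate 2. The means were 7.86 ± 0.796 and 5.81 ± 0.440 RPKM (SD, n = 3 each), a 1.35-fold difference (log2 fold change 0.44, SE 0.11, adjusted p = 0.0349 in edgeR's quasi-likelihood test). The call was kept in 2 of the 6 fits with a library left out. The adjusted p was 0.138 without NOD.B10 replicate 1 and 0.093 without NOD.B10 replicate 3. It was 0.0545 without BL/10 replicate 1 and 0.0905 without BL/10 replicate 3, all in edgeR's quasi-likelihood test. The log2 fold change stayed between 0.37 and 0.51 over these 6 fits, and was 0.49 with only libraries labelled 26 weeks.

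Tlr7, the receptor of single-stranded RNA most often tied to lupus-like disease in mice, was not called. Tlr7 (ENSMUSG00000044583) lies at X:167304929-167330558 on the minus strand, 40.6 kb from Tlr8, with 6 exon blocks. Its libraries read 18.5, 16.3 and 19.3 RPKM in NOD.B10 and 16.5, 17.6 and 15.5 RPKM in BL/10. NOD.B10 replicate 2 fell among the BL/10 libraries, while the other NOD.B10 libraries were above them all. The log2 fold change was 0.12 (SE 0.10, adjusted p = 0.396 in edgeR's quasi-likelihood test).

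Tlr3, the receptor of double-stranded RNA, was placed between these cases. Tlr3 (ENSMUSG00000031639) lies at 8:45395665-45410608 on the minus strand, with 7 exon blocks. It was measured at 6.68, 6.62 and 8.15 RPKM in NOD.B10 and at 6.28, 6.32 and 5.61 RPKM in BL/10. Every NOD.B10 library was above every BL/10 library, but replicates 1 and 2 of NOD.B10 only narrowly, and the difference did not pass the test (log2 fold change 0.24, SE 0.11, adjusted p = 0.18 in edgeR's quasi-likelihood test). Counting Tlr3, 5 of 9 members had all NOD.B10 libraries above all BL/10 libraries, against 20.5% of all genes tested, and no member had them all below. In either direction, 38.0% of all genes had libraries that did not overlap.

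The DNA receptor Tlr9 did not pass the test. Tlr9 (ENSMUSG00000045322) lies at 9:106222598-106226883 on the plus strand, with 2 exon blocks. Its level was 17.7, 14.0 and 20.0 RPKM in NOD.B10 and 18.5, 15.1 and 16.1 RPKM in BL/10. The NOD.B10 libraries held both the highest and the lowest value. The log2 fold change was 0.06 (SE 0.14, adjusted p = 0.808 in edgeR's quasi-likelihood test), and its sign changed when single libraries were left out, with log2 fold changes from -0.06 without NOD.B10 replicate 3 to 0.19 without NOD.B10 replicate 2.

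Of the profilin receptors, Tlr12 gave the largest fold change of any member, while Tlr11 was not called. Tlr12 (ENSMUSG00000062545) is a single-exon gene at 4:128615443-128618619 on the minus strand. It was counted 137, 137 and 164 times in the NOD.B10 libraries and 55, 48 and 68 times in the BL/10 libraries, corresponding to 2.58, 2.65 and 2.90 RPKM and to 0.940, 1.01 and 1.22 RPKM. The strains were far apart, and the libraries of each strain lay close together. The means were 2.71 ± 0.169 and 1.06 ± 0.143 RPKM (SD, n = 3 each), a 2.56-fold difference (log2 fold change 1.36, SE 0.16, adjusted p = 0.0015 in edgeR's quasi-likelihood test). This placed Tlr12 at rank 341 of the 15330 genes by p. Tlr12 was called under all 16 alternative settings, with log2 fold changes between 1.14 and 1.52.

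Tlr11 (ENSMUSG00000051969), the partner of Tlr12 in profilin recognition, lies at 14:50357914-50363663 on the plus strand, with 2 exon blocks. It was measured at 5.86, 4.58 and 4.67 RPKM in NOD.B10 and at 4.51, 5.39 and 4.50 RPKM in BL/10. One library of each strain was high and the remaining 4 were close together. The log2 fold change was 0.07 (SE 0.14, adjusted p = 0.75 in edgeR's quasi-likelihood test), and without NOD.B10 replicate 1 it was -0.05.

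The chaperone genes also differed in their calls. Cnpy3 (ENSMUSG00000023973), at 17:46735705-46752214 on the minus strand with 7 exon blocks, was measured at 44.2, 38.4 and 43.4 RPKM in NOD.B10 and at 33.3, 29.2 and 30.7 RPKM in BL/10. The strains did not overlap. The means were 42.0 ± 3.17 and 31.1 ± 2.09 RPKM (SD, n = 3 each), a 1.35-fold difference (log2 fold change 0.44, SE 0.09, adjusted p = 0.0191 in edgeR's quasi-likelihood test). The direction was kept in every alternative setting, with log2 fold changes between 0.34 and 0.50 over all 16. The adjusted p was 0.0899 without NOD.B10 replicate 1 and 0.0662 without NOD.B10 replicate 3. It was 0.0582 without BL/10 replicate 2 and 0.061 without BL/10 replicate 3, all in edgeR's quasi-likelihood test. Cnpy3 lies on chromosome 17, 11.5 Mb from H2-D1, a gene of the H2 complex for which the strain is congenic. Whether the congenic segment reaches Cnpy3, and whether position has a part in its difference, was not tested.

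Unc93b1 (ENSMUSG00000036908) lies at 19:3935186-3949340 on the plus strand, with 10 exon blocks. Its libraries read 123, 100.3 and 144 RPKM in NOD.B10 and 124, 106 and 120 RPKM in BL/10. The NOD.B10 libraries again held the highest and the lowest value, as for Tlr9, and Unc93b1 and Tlr9 ordered the 6 libraries in the same way. The log2 fold change was 0.07 (SE 0.15, adjusted p = 0.781 in edgeR's quasi-likelihood test). No member shared exon bases with another gene of the table.

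**Figure D2:**
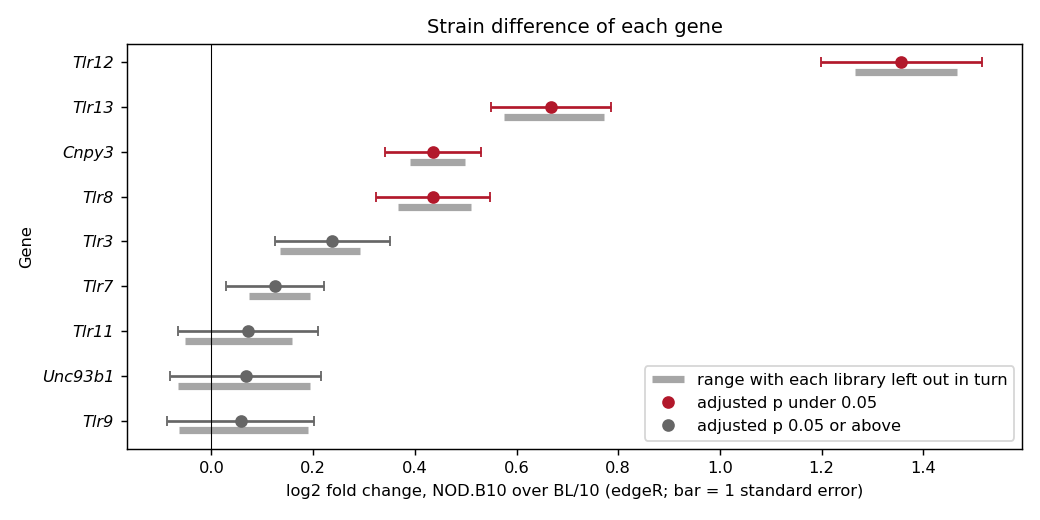
Log2 fold change of NOD.B10 over BL/10 for each of the 9 members from edgeR's quasi-likelihood test, with bars of 1 SE, called members in red, others in dark grey, and a light bar for the range when each library is left out in turn. All 9 estimates are above 0, from 0.06 for Tlr9 to 1.36 for Tlr12, the ranges of Tlr9, Tlr11 and Unc93b1 cross 0, and the 4 called members are Tlr12, Tlr13, Tlr8 and Cnpy3.

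All 9 members had log2 fold changes above 0, as did 7678 of the 15330 genes tested. The median of the members was 0.24, beside a median of 0.00060 over all genes tested. The sign was not stable for Tlr9, Tlr11 and Unc93b1, as it changed in at least 1 alternative setting for each. The summed level of the 7 receptors was 83.4, 71.7 and 83.1 RPKM in the NOD.B10 libraries and 65.5, 67.2 and 60.3 RPKM in the BL/10 libraries.

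The make-up of this sum was then compared. Tlr13 took 28.1%, 28.7% and 24.2% of the summed receptor level in NOD.B10 and 20.1%, 22.9% and 19.6% in BL/10. Tlr12 took 3.09%, 3.69% and 3.49% in NOD.B10 and 1.44%, 1.51% and 2.02% in BL/10. Both shares were larger in every NOD.B10 library than in any BL/10 library, and so was that of Tlr8, at 9.56% to 10.3% against 8.54% to 9.41%. Tlr7 took 22.2% to 23.2% in NOD.B10 and 25.1% to 26.3% in BL/10, a smaller share in every NOD.B10 library although its own level overlapped between strains. The shares of Tlr9 (19.5% to 24.1% against 22.5% to 28.3%), Tlr3 (8.01% to 9.82% against 9.31% to 9.59%) and Tlr11 (5.62% to 7.03% against 6.89% to 8.02%) overlapped.

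**Figure D3:**
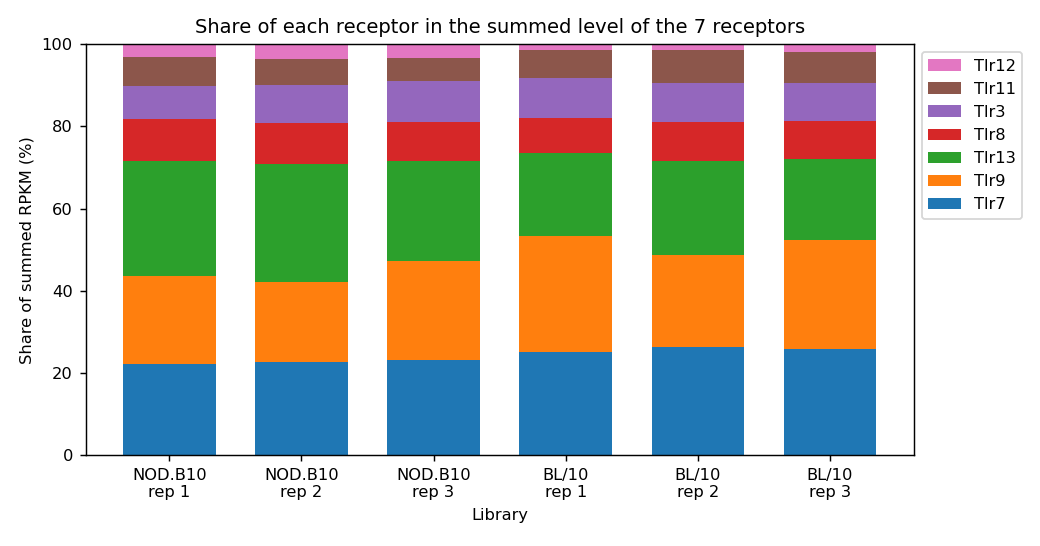
Share of each of the 7 receptors in their summed per-length level (percent, stacked bars from 0), with 1 bar per library and the libraries of each strain side by side. The Tlr13 segment spans 24.2% to 28.7% in NOD.B10 and 19.6% to 22.9% in BL/10, and the Tlr12 segment 3.09% to 3.69% and 1.44% to 2.02%.

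Ratios within a library do not depend on library scaling, and 5 pairs were compared by a two-sided exact permutation test, in which 3 against 3 libraries cannot give a p below 0.1. The ratio of Tlr8 to Tlr7 was 0.464, 0.431 and 0.412 in NOD.B10 and 0.340, 0.358 and 0.356 in the BL/10 libraries. The ratio of Tlr13 to Tlr7 was 1.26, 1.26 and 1.04 in NOD.B10 and 0.800, 0.873 and 0.759 in BL/10, so that it lay on opposite sides of 1 in the strains. The ratio of Tlr12 to Tlr11 was 0.440, 0.579 and 0.621 in NOD.B10 and 0.208, 0.188 and 0.271 in the BL/10 libraries. These ratios were higher in every NOD.B10 library, by 0.31, 0.55 and 1.30 on the log2 scale, each with the smallest exact permutation p possible, 0.1 (0.125 after adjustment over 5 ratios). The ratio of Unc93b1 to Cnpy3 was 2.77, 2.61 and 3.32 in NOD.B10 and 3.73, 3.64 and 3.91 in BL/10, and was lower in every NOD.B10 library (log2 difference -0.38, exact permutation p = 0.1, adjusted 0.125). The ratio of Tlr9 to Tlr7 overlapped, at 0.955, 0.858 and 1.04 against 1.12, 0.856 and 1.03 (log2 difference -0.07, exact permutation p = 0.8).

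The genes around each member were read from the same test, as the 5 nearest tested genes on each side. Excluding members, there were 80 such genes, of which 13 (16.2%) were called, 4 higher and 9 lower, near the 17.3% of all genes. Next to Tlr13, at 18.3 kb, Atp7a, a copper-transporting ATPase, was higher in NOD.B10 (26.8 against 19.5 CPM, log2 fold change 0.46, SE 0.12, adjusted p = 0.0344 in edgeR's quasi-likelihood test). Around Tlr8 and Tlr7 the predicted gene Gm15228 was lower (log2 fold change -1.19). None of the 10 genes around Cnpy3 was called by edgeR or by DESeq2, and 1 had an unadjusted p under 0.05.

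Members that were not called had called neighbours with larger differences. Around Tlr9, the collagen gene Col6a4 was higher (log2 fold change 2.83, SE 0.18, adjusted p = 8.3e-05 in edgeR's quasi-likelihood test), while the ribosomal protein gene Rpl29 (-1.74) and the centriolar gene Poc1a (-1.08) were lower. Around Tlr11, Ccnb1ip1 was measured at 5.25 CPM on average in NOD.B10 and had no count in any BL/10 library, and Tmem260 (log2 fold change -0.55), Armh4 (-1.69) and Rpph1 (-1.29) were lower. These genes were far from Tlr11, at 426 kb (Ccnb1ip1), 1843 kb (Tmem260), 575 kb (Armh4) and 444 kb (Rpph1). Armh4 (0.528 against 1.72 CPM) and Rpph1 (0.358 against 0.879 CPM) had low levels, and DESeq2 did not call Rpph1 (adjusted p = 0.0799). Unc93b1 was flanked on each side by a called aldehyde dehydrogenase gene, with Aldh3b1 at 5.43 kb (log2 fold change -0.39) and Aldh3b2 at 23.0 kb (-1.57), both lower in NOD.B10. Near Tlr3, Pdlim3 was higher (log2 fold change 0.84).

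**Figure D4:**
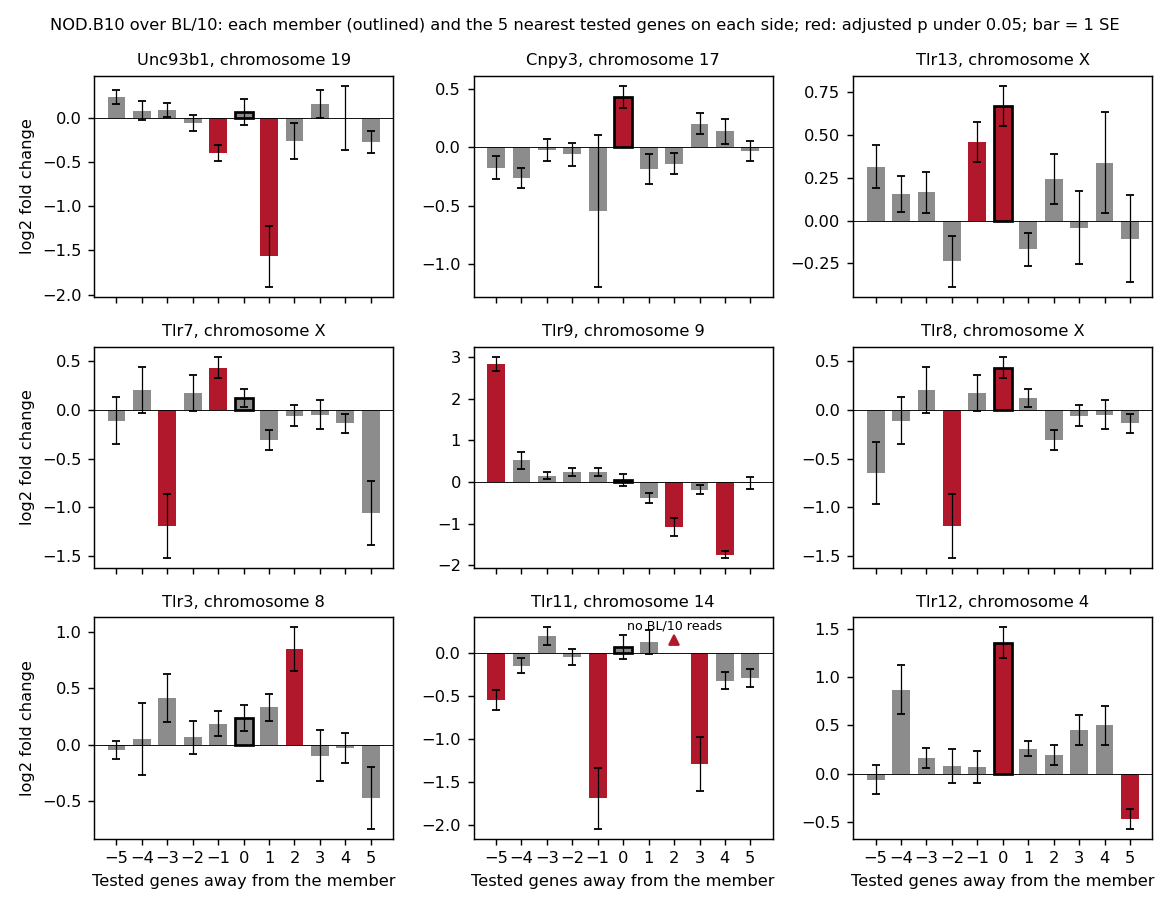
Log2 fold change of NOD.B10 over BL/10 for each member (outlined, centre) and the 5 nearest tested genes on each side in chromosomal order, 1 panel per member, each with its own vertical scale. Called genes are red, bars are 1 SE, Ccnb1ip1 beside Tlr11 is marked without a bar because it had no read in BL/10, and 13 of 80 neighbours that are not members were called.

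The genes whose levels most resembled those of the called members over the 6 libraries were taken by Pearson r of log2 CPM among 14217 genes with a mean of at least 1 CPM. These correlations describe 6 libraries that share strain and depth, and with so many candidates values near 1 are common. For Tlr12 they were Hmbox1 (r = 0.998), a homeobox gene, Slc36a1 (r = 0.997), a lysosomal amino acid transporter, and 1810032O08Rik (r = 0.997). For Tlr13 they were Clasp2 (r = 0.996), which binds microtubule ends, Cers6 (r = 0.995), a ceramide synthase, and Tgtp2 (r = 0.993), an interferon-inducible GTPase. For Tlr8 they were H3f3aos (r = 0.996) and the immunoglobulin kappa variable segments Igkv1-99 and Igkv9-124 (r = 0.995 each), and for Cnpy3 they were Ccser2 (r = 1.00), Cyth4 (r = 0.998) and Slc41a2 (r = 0.998).

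Genes that act with the endosomal receptors were compared by fixed lists. In the list of 13 genes for the trafficking and processing of these receptors, 1 was called (7.69%, against 17.3% of all genes), Ctsk, and it was lower in NOD.B10. Ctsk encodes cathepsin K, a cysteine protease that can act in endosomes. It was counted 7, 6 and 1 times in NOD.B10 and 129, 106 and 112 times in BL/10, with no overlap (0.281 ± 0.196 against 6.83 ± 0.403 CPM, SD, n = 3 each, log2 fold change -4.59, SE 0.39, adjusted p = 0.00033 in edgeR's quasi-likelihood test). Hsp90b1, the partner of Cnpy3, had a log2 fold change of 0.44 with a wider error (814 ± 161 against 598 ± 73.9 CPM, SD, n = 3 each, SE 0.17, adjusted p = 0.107 in edgeR's quasi-likelihood test) and was not called. The list's median log2 fold change was 0.0018.

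Of the 11 tested genes that supply or degrade nucleic acids, 3 were called higher and 1 lower (36.4%, against 17.3% of all genes), with a median log2 fold change of 0.23. Dnase1l3, a secreted nuclease that digests DNA in chromatin and microparticles, was higher (210 ± 25.0 against 129 ± 7.21 CPM, SD, n = 3 each, log2 fold change 0.71, SE 0.11, adjusted p = 0.0059 in edgeR's quasi-likelihood test). Sidt1, a membrane protein linked to the transport of double-stranded RNA, was higher at 36.5 ± 7.47 against 16.9 ± 3.45 CPM (SD, n = 3 each, log2 fold change 1.11). The lysosomal RNase T2 genes went in opposite directions, with Rnaset2a higher (10.3 against 4.83 CPM, log2 fold change 1.09) and Rnaset2b lower (0.348 against 2.83 CPM, log2 fold change -2.98). They are near-identical copies whose shared reads were not counted, so their values are uncertain. Trex1 was not tested, as it was listed at 0 in every library and all of its 1147 exon bases were shared with another gene of the table.

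In the list of 28 signaling genes downstream of the receptors, 3 were called higher and 1 lower (14.3%, against 17.3% of all genes), with a median log2 fold change of 0.08. The called genes were the kinase genes Ikbke (log2 fold change 0.69, SE 0.15, adjusted p = 0.0208) and Ikbkb (0.47, SE 0.11, adjusted p = 0.0246), the transcription factor Irf1 (0.42, SE 0.11, adjusted p = 0.039) and Irf7 (-1.27, SE 0.26, adjusted p = 0.0155), all by edgeR's quasi-likelihood test. Irf7, which drives type I interferon genes after Tlr7 and Tlr9 engagement, was counted 786, 530 and 785 times in NOD.B10 and 1155, 1910 and 1878 times in BL/10. Its libraries did not overlap, and BL/10 replicate 1 was the lowest of its strain. With only the libraries labelled 26 weeks, in which it is the only control, the log2 fold change of Irf7 was -0.61 and was not called (adjusted p = 0.149 in edgeR's quasi-likelihood test). The count of called signaling genes depended on single libraries, being 2 without NOD.B10 replicate 1, 1 without NOD.B10 replicate 3, 8 without BL/10 replicate 1, 1 without BL/10 replicate 2 and 0 without BL/10 replicate 3, where edgeR gave 5 genes an unadjusted p under 0.05. Irf7 lost its call without NOD.B10 replicate 3 or BL/10 replicate 3, Ikbke without BL/10 replicate 2 or 3, and Ikbkb and Irf1 without any 1 of NOD.B10 replicates 1 and 3 and BL/10 replicates 2 and 3, with adjusted p from 0.0502 (Irf7) to 0.144 (Irf1) in edgeR's quasi-likelihood test. Myd88 (log2 fold change 0.23, adjusted p = 0.188) and Irf5 (-0.06, adjusted p = 0.741), which binds Myd88, were not called by edgeR's quasi-likelihood test.

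The receptors of the cell surface and the sensors of the cytosol were read as comparison families. Of 10 surface receptor and co-receptor genes, 1 was called (10%, against 17.3% of all genes), and it was Tlr6, the partner of Tlr2 in the recognition of diacylated lipopeptides. Tlr6 was counted 474, 413 and 540 times in NOD.B10 and 216, 145 and 163 times in BL/10 (28.0 ± 2.51 against 10.2 ± 1.31 CPM, SD, n = 3 each), with no overlap between strains. Its log2 fold change of 1.45 (SE 0.13, adjusted p = 0.00042 in edgeR's quasi-likelihood test) stood beside that of 1.36 for Tlr12. Tlr1 (log2 fold change 0.63, adjusted p = 0.0876), Tlr2 (0.20, adjusted p = 0.248), Tlr4 (0.22, adjusted p = 0.257) and Tlr5 (0.29, adjusted p = 0.405) were not called by edgeR's quasi-likelihood test. Tlr1 was called by DESeq2 (adjusted p = 0.0387) and by edgeR's quasi-likelihood test without BL/10 replicate 1 (adjusted p = 0.0035). The latter fit has only controls with the older age label. Tlr1 read 74.1 CPM in BL/10 replicate 1 and 44.5 and 42.7 CPM in BL/10 replicates 2 and 3. The NOD.B10 libraries read 75.0 to 97.2 CPM. The part of age in these Tlr1 levels was not tested. The number of surface genes called was 2 without NOD.B10 replicate 3 and without BL/10 replicate 1. The median log2 fold change of the list was 0.22, near the 0.24 of the endosomal set.

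Among 8 cytosolic sensors of nucleic acid, 1 was called higher and 2 lower (37.5%, against 17.3% of all genes), with a median log2 fold change of -0.07. The RNA helicase genes Ifih1 (MDA5), at 25.8 ± 2.70 against 54.8 ± 13.9 CPM (SD, n = 3 each, log2 fold change -1.09), and Dhx58 (LGP2), at 16.2 ± 3.73 against 29.0 ± 3.90 CPM (log2 fold change -0.84), were lower in NOD.B10. Tmem173, which encodes the DNA pathway adaptor STING, was higher (105 ± 6.98 against 67.4 ± 12.2 CPM, log2 fold change 0.64). The count of called cytosolic sensors was 1 without NOD.B10 replicate 1, 5 without BL/10 replicate 1 and 1 without BL/10 replicate 2. Dhx58 lost its call without NOD.B10 replicate 1 (adjusted p = 0.0578) or BL/10 replicate 2 (0.0602), and Tmem173 without NOD.B10 replicate 1 (0.0637), NOD.B10 replicate 3 (0.0649), BL/10 replicate 2 (0.0534) or BL/10 replicate 3 (0.0623), by edgeR's quasi-likelihood test. Neither family was tested against the endosomal set.

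**Figure D5:**
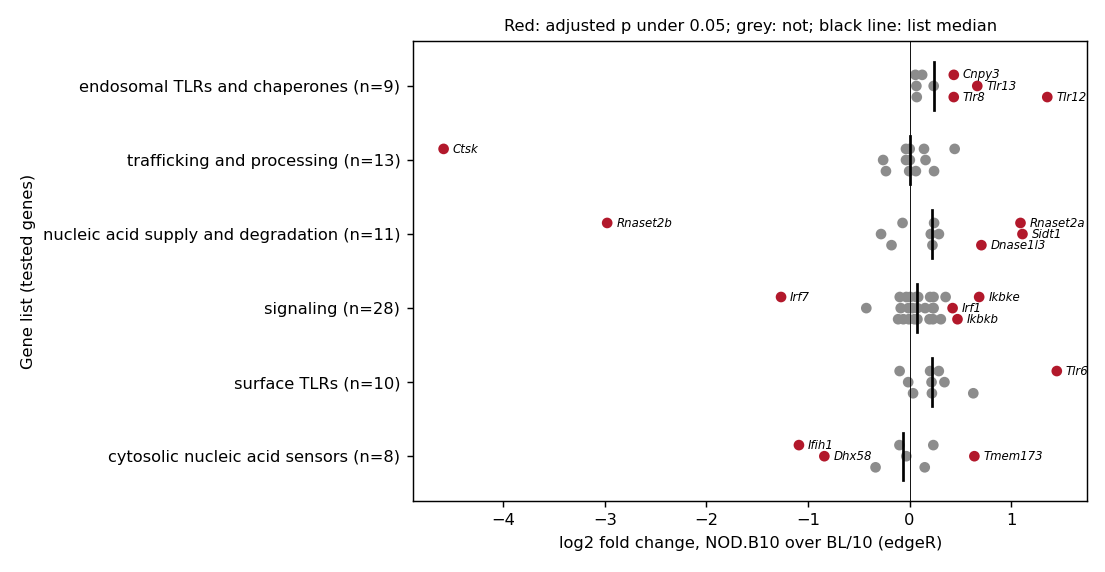
Log2 fold change of NOD.B10 over BL/10 for every tested gene of the endosomal set and of the 5 comparison lists, with 1 point per gene, called genes in red and named, other genes in grey and a black line at each list median. The medians are 0.24 for the endosomal set, 0.22 for surface TLRs and -0.07 for cytosolic sensors.

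Cell types of the spleen express these receptors unequally, and in bulk tissue fewer cells of a type and less RNA per cell cannot be told apart. Lists of cell type markers were therefore read beside the members, and no listed marker was at 0 in all libraries. Plasmacytoid dendritic cells, which rely on Tlr7 and Tlr9, had marker sums of 620 to 786 CPM in NOD.B10 and 958 to 1505 CPM in BL/10, with 1 of 10 markers called, Ly6d (log2 fold change -1.80), a gene also expressed by B cells. The gap between the sums rested on Ly6d. The sums of the other 9 markers overlapped, at 495 to 623 against 572 to 768 CPM. Their log2 fold changes were above 0 for 4 and below 0 for 5. Siglech, not called, was lower in every NOD.B10 library (35.0 to 52.5 against 57.1 to 63.2 CPM, log2 fold change -0.45). Klk1 read 104, 20.6 and 4.15 CPM in BL/10 replicates 1, 2 and 3, the order of their pancreas sums, and 14.2 to 17.0 CPM in NOD.B10. Within the list, edgeR gave 2 higher and 2 lower markers an unadjusted p below 0.05. Conventional dendritic cells, in which Tlr11 and Tlr12 are known, had overlapping sums of 793 to 921 against 727 to 799 CPM. Of their 11 markers, 1 was called, Itgae (log2 fold change 0.63). Most of the sum was Wdfy4, at 544 of 878 CPM on average in NOD.B10 and 455 of 753 CPM in BL/10. Log2 fold changes were above 0 for 9 markers. Those of Clec9a (-0.31, with every NOD.B10 library below every BL/10 library) and Zbtb46 (-0.16) were below 0. B cells, which express Tlr7 and Tlr9, had overlapping sums of 4007 to 5201 against 2983 to 5306 CPM. The overlap came from BL/10 replicate 1 (5306 CPM). BL/10 replicates 2 and 3, at 2983 and 3245 CPM, were below every NOD.B10 library. All 10 B cell markers had log2 fold changes above 0, with a median of 0.28. None of the 10 B cell markers was called by edgeR's quasi-likelihood test, 1 had an unadjusted p under 0.05, and DESeq2 called 1.

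Myeloid cells, in which Tlr8 and Tlr13 are known, were covered by several lists. Red pulp macrophage markers had sums of 3946 to 5180 CPM in NOD.B10 and 4409 to 5125 CPM in BL/10, with Vcam1 higher (log2 fold change 0.38) and Cd5l (-1.63) and Slc40a1 (-0.62) lower among 10. Monocyte markers had sums of 749 to 884 against 896 to 1091 CPM, with 1 of 8 called, Ly6c2 (log2 fold change -3.98). Here too the gap rested on the called gene, since the sums of the other 7 markers were 740 to 874 against 780 to 898 CPM and overlapped, with log2 fold changes above 0 for 2 and below 0 for 5. Of 10 neutrophil markers, 9 were called lower in NOD.B10, with list sums of 2172 to 2524 against 6169 to 12872 CPM. Those with the smallest p were S100a8 (log2 fold change -2.29), Camp (-2.40) and S100a9 (-2.06). The remaining marker, Cxcr2, went the other way (55.5 against 37.1 CPM on average, log2 fold change 0.58). Its libraries overlapped and it was not called. Of 8 T cell markers, 6 were called higher, with list sums of 684 to 888 against 347 to 444 CPM. Those with the smallest p were Cd3e (log2 fold change 1.42), Cd3d (1.13) and Cd5 (1.57). The CD8 genes Cd8a (0.16) and Cd8b1 (-0.40) overlapped between strains and were not called.

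Erythroid sums overlapped (26296 to 47059 against 27059 to 61617 CPM), with none of 8 markers called by edgeR's quasi-likelihood test, 1 at an unadjusted p under 0.05 and 1 called by DESeq2. All 10 pancreas acinar markers were lower in NOD.B10, among them Ctrb1, Cela2a and Cpb1, each under 1 CPM on average in NOD.B10. With BL/10 replicate 3, the control library with the lowest pancreas sum, as the only control, the log2 fold change was 1.14 for Tlr12, 0.84 for Tlr13, 0.49 for Tlr8 and 0.44 for Cnpy3, and Tlr12 and Tlr13 were called. The part of the cell type lists in the members' differences was not tested.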

How the data were processed

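RNA from whole spleens of 3 females of each strain was prepared with TruSeq chemistry and sequenced as 50-cycle single-end reads. The authors deposited raw read counts per gene, made with featureCounts 1.5.1 on exons of Ensembl 84 (GRCm38), without strand and without multi-mapping reads, per the file headers. The paper names Tophat2 as the aligner, whereas the submitters' processing notes list HISAT2 2.0.5. The deposited table also gives each gene's exon length. Myd88-deficient libraries named in its header were not analysed here. Symbols matched for 47224 of 47729 gene identifiers. For BL/10 replicate 3, the S number in the description differs from that in the column name, so the match rests on library number and strain.

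Genes were filtered with filterByExpr (15330 kept), normalised by TMM and compared with the quasi-likelihood test of edgeR 4.0.16 (limma 3.58.1, R 4.3.3), with a threshold of 0.05 on the Benjamini-Hochberg adjusted p and BL/10 as the reference. Each standard error is the absolute log2 fold change over the square root of its F statistic. CPM and RPKM use TMM-scaled totals. Replicates differed by more than sampling noise (chi-square over degrees of freedom 12.5 to 76.0), so none was merged. Scripts were tested on simulated data.

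The members and lists were chosen with earlier results of these data known. Named were all members, called genes of the pathway lists (at most 6 a list), Tlr1, Tlr2, Tlr4, Tlr5, Tlr6, Myd88, Irf7, Irf5 and Hsp90b1, the 3 genes closest in pattern to each called member, called neighbours and at most 3 called markers a list. One called neighbour is not reported here. Log2 CPM for that likeness used a pseudocount of 0.5 CPM. Alternatives were DESeq2 1.42.0, other normalisations, other filters, limma-voom, a replicate block, leaving out each library, only libraries labelled 26 weeks, removal of hemoglobin, immunoglobulin and pancreas genes, and BL/10 replicate 3 as the only control. The last was added after seeing the data.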

Additional observations from a re-analysis of the deposited data

How the results depend on the processing

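Tlr12 and Tlr13 passed the threshold in 16 of 16 alternative settings, Cnpy3 in 10, Tlr8 in 9, and the other members in none. The number of members called was 4 under DESeq2, the other normalisations and filters, limma-voom and the removal of hemoglobin, immunoglobulin and pancreas genes. It ranged from 2 to 4 when single libraries were left out. With the replicate number as a block it was 3, Tlr8 being lost (adjusted p = 0.0609 by edgeR's quasi-likelihood test). The labels do not say that the numbers pair the libraries. The deviations of same-numbered libraries from their strain means correlated at 0.0542, 0.251 and -0.0762. NOD.B10 replicates 1 and 2 correlated best with their own number and NOD.B10 replicate 3 did not. With 3 libraries a strain, this check cannot exclude a pairing. The count of all called genes was 2889 with the block and between 1269 and 4107 with single libraries left out. The count of 4107 came without BL/10 replicate 1, where no control has the age label of the NOD.B10 libraries.

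With only libraries labelled 26 weeks, which leaves 1 BL/10 library assumed to vary like the others, 1001 genes, 2 members (Tlr12 and Tlr13), 1 cytosolic sensor and 0 signaling genes were called by edgeR, with 3 signaling genes at an unadjusted p under 0.05. The log2 fold change was then -0.10 for Tlr9 and -0.0233 for Unc93b1. With BL/10 replicate 3 as the only control, chosen after seeing the data and with the same assumption, 2 members, 2 signaling genes and 2 surface genes were called. DESeq2 called 2 surface genes. With at least 10 counts required in every library, no trafficking gene was called by edgeR, since Ctsk was removed, and 1 had an unadjusted p under 0.05. Leaving out single libraries gave 0 to 8 signaling, 1 to 2 surface and 1 to 5 cytosolic genes. Over these fits the log2 fold change ran from -0.0632 to 0.19 for Tlr9, from -0.0513 to 0.16 for Tlr11, from -0.0665 to 0.19 for Unc93b1 and from -0.15 to 0.023 for Irf5, and the log2 difference of the Tlr9 to Tlr7 ratio ran from -0.19 to 0.0109. Apart from the removal of Ctsk, the cause of these changes was not tested. Tlr12 had the fewest reads of any member, with 48 in BL/10 replicate 2, so counting error was largest for it.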
